A study of Oryza sativa Japonica Group with 3 samples.

Results

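The superoxide dismutases and catalases of rice were compared across 3 RNA sequencing libraries of seedlings grown from untreated seed and from seed implanted with nitrogen ions. The 9 loci were taken from a list of locus identifiers: 6 superoxide dismutases (SOD) and 3 catalases, out of 55759 annotated loci. The SOD list holds cytosolic Cu/Zn SOD 1 and 2, the plastid Cu/Zn SOD, the Mn SOD and a pair of Fe SODs, and the catalase list holds CatA, CatB and CatC. The names come with that list, since the deposited files hold identifiers only.

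All seedlings were of the cultivar Xindao-18 (Oryza sativa, Japonica group), kept at 28 °C under 12 h light and 12 h dark on wetted filter paper, and taken whole at 96 h. The control library came from 1 RNA pool of 50 buds of similar height from untreated seed. The low fluence library mixed equal RNA amounts, 10 µg each, of the pools from seed implanted with N+ ions at 1 and at 2 in units of 1e+17 ions per square centimetre, described in the labels as without significant damage. The high fluence library mixed the pools given 6 and 8 in the same unit, described as significantly damaged. The labels print the exponent on the line, and 1e+17 is a reading of it. The labels tie the growth effect to the seventh day, after the sampling. Each group is thus 1 library of pooled buds with no replicate, so differences between libraries have no replicate error beside them and no p-value is given.

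Superoxide is a by-product of electron transport in chloroplasts and mitochondria. Superoxide dismutases convert it to hydrogen peroxide and oxygen, and the forms differ by the metal they carry and the compartment they serve: Cu/Zn forms in the cytosol and the plastid, Fe forms in the plastid, and the Mn form in the mitochondrion. Catalases of the peroxisome then break hydrogen peroxide down to water and oxygen, including the peroxide made by glycolate oxidase in photorespiration and during the use of stored lipid. Ionizing radiation can raise the load of such reactive oxygen species, and SOD and catalase are commonly measured in irradiated seedlings for that reason.

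Values are FPKM as deposited (fragments per kilobase of transcript, scaled to mapped fragments), summed over the transcripts of a locus, so levels can be set side by side between genes. Differences are ratios of (FPKM + 1), which understates the change of weakly expressed loci, and a locus was counted as differing at 2-fold or more. Total counts are not given with FPKM. From the lowest values, which move in whole steps, sequencing depth relative to the control was estimated at 0.498 for low fluence and 1.36 for high fluence. In whole seedlings, fewer cells of a type and less RNA per cell cannot be told apart.

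A few loci carried most of the SOD transcript level in every library, Mn SOD, cytosolic Cu/Zn SOD 2 and plastid Cu/Zn SOD, and CatA and CatB carried nearly all of the catalase level. In the high fluence library the plastid SODs stood above the control, while the Mn SOD and both cytosolic SODs stood below it, the cytosolic ones not when libraries were rescaled to the FPKM total of all rows. CatA was 1.21-fold and CatB 1.06-fold below control after high fluence, and both were above it under that rescaling, CatB also under the other scalings tried. None of the 9 loci differed 2-fold between high fluence and control, where 4.23% of all measured loci (averaging 1 FPKM or more) were higher and 6.33% lower. CatC, a weakly expressed locus, was the 1 member that stood 2-fold above control after low fluence, as did 3.06% of all measured loci.

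**Figure D1:**
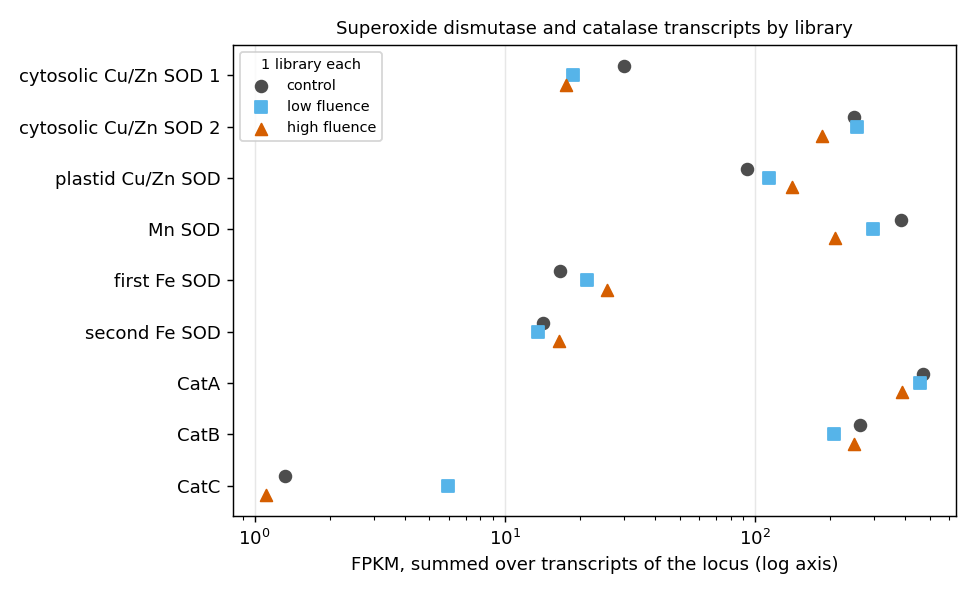
FPKM of each locus (horizontal log axis) in the control (circle), low fluence (square) and high fluence (triangle) library, 1 library each, with no error bars because there are no replicates. Mn SOD ranges from 386 FPKM in the control to 209 after high fluence, plastid Cu/Zn SOD runs the other way from 93.1 to 140, and CatC lies far below CatA and CatB in every library.

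In the control library the order of levels was CatA at 469 FPKM, Mn SOD at 386, CatB at 263, cytosolic Cu/Zn SOD 2 at 249, plastid Cu/Zn SOD at 93.1, cytosolic Cu/Zn SOD 1 at 30.0, the first Fe SOD at 16.7, the second Fe SOD at 14.2 and CatC at 1.32. CatA ranked 100 among all annotated loci of the control library, Mn SOD ranked 146, CatB 265 and cytosolic Cu/Zn SOD 2 ranked 294. These 4 thus belong to the most abundant annotated loci. Annotated loci held 20.2% of the FPKM total of all rows in the control, and the other rows were not ranked. With 1 library per group, whether neighbours in this order differ cannot be judged. After high fluence Mn SOD, at rank 300, stood below CatB, at rank 236, and the first Fe SOD stood above cytosolic Cu/Zn SOD 1.

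Mn SOD (LOC_Os05g25850, chromosome 5), the mitochondrial form, stood at 386 FPKM in the control, 297 after low fluence and 209 after high fluence. It was highest in the control and lowest after high fluence, with low fluence between them. The log2 ratio to control was -0.38 for low fluence and -0.88 for high fluence. The latter, 1.85-fold lower, is the largest difference from control after high fluence among the 9 loci on the deposited scale. The first Fe SOD and plastid Cu/Zn SOD differed more when ratios were centred on the median of loci, at 0.74 each against -0.73. The same held when libraries were rescaled to the total of annotated loci. With rescaling to the total of all rows, every other member differed more than Mn SOD, and plastid Cu/Zn SOD differed most. By the highest transcript of each locus the first Fe SOD differed more, and CatC did with assembled neighbours added. Of the 9265 annotated loci averaging 10 FPKM or more, 6.86% had a lower ratio of high fluence to control than Mn SOD. All of its level came from transcript 1, and transcript 2 was listed at 0 in the 3 libraries.

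Cytosolic Cu/Zn SOD 2 (LOC_Os07g46990, chromosome 7) stood at 249 FPKM in the control, 257 after low fluence and 186 after high fluence. The control and low fluence values lay within 1.03-fold, and high fluence was 1.34-fold below control. This locus had a pair of abundant transcripts that behaved differently. Transcript 1 stood at 152 FPKM in the control, 146 after low fluence and 82.5 after high fluence, and transcript 2 at 97.6, 111 and 104 FPKM. The lower level of the locus after high fluence therefore lay in transcript 1, whose share of the locus was 60.8% in the control, 56.8% after low fluence and 44.3% after high fluence. A shift of the leading transcript at least as large as these 16.5 points between high fluence and control was seen in 11.8% of 3364 loci. These loci had several annotated transcripts, averaged 10 FPKM or more and were above 0 in every library. FPKM of overlapping transcripts are estimates that divide shared reads, and their error is not given in the files.

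Cytosolic Cu/Zn SOD 1 (LOC_Os03g22810, chromosome 3) stood at 30.0 FPKM in the control, 18.7 after low fluence and 17.6 after high fluence. Both irradiated libraries were below the control, by 1.57-fold and 1.67-fold, and lay within 1.06-fold of each other. The row before it in the files is CUFF.7034, an identifier of the kind Cufflinks assigns to a transcript it built from the reads, with no gene assignment. CUFF.7034 stood at 129 FPKM in the control, 122 after low fluence and 83.1 after high fluence, several times the level of the annotated locus. Added to it, the sums were 159, 141 and 101 FPKM, 1.13-fold below control after low fluence and 1.58-fold after high fluence. The row after the locus is LOC_Os03g03130, from another stretch of chromosome 3, so rows interleave here and CUFF.7034 need not lie near it. Whether CUFF.7034 holds reads of cytosolic Cu/Zn SOD 1 was not tested. If it does, the level of this locus and its difference after low fluence depend on it. Both cytosolic Cu/Zn SODs are close relatives, and how reads common to them were divided is not stated in the labels.

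The plastid Cu/Zn SOD (LOC_Os08g44770, chromosome 8), the form that acts in the chloroplast, stood at 93.1 FPKM in the control, 114 after low fluence and 140 after high fluence. It was lowest in the control and highest after high fluence, with a log2 ratio to control of 0.29 for low and 0.59 for high fluence. Of the annotated loci averaging 10 FPKM or more, 7.37% had a higher ratio of high fluence to control. Nearly all of the level was transcript 1. Transcript 2 was listed at 0 in the control and after low fluence and at 2.69 FPKM after high fluence.

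The first Fe SOD (LOC_Os06g05110, chromosome 6) stood at 16.7 FPKM in the control, 21.3 after low fluence and 25.7 after high fluence. Its order across the libraries was that of the plastid Cu/Zn SOD, 1.26-fold above control after low fluence and 1.51-fold after high fluence. The difference lay in transcript 1, at 9.64 FPKM in the control, 15.1 after low fluence and 20.7 after high fluence, 2.04-fold above control after high fluence. Transcript 3 ran the other way at 7.07, 6.25 and 5.03 FPKM. The share of transcript 1 was 57.7% in the control, 70.7% after low fluence and 80.4% after high fluence. Of the same 3364 loci with several transcripts, 6.84% shifted at least as much between high fluence and control.

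The second Fe SOD (LOC_Os06g02500, chromosome 6) stood at 14.2 FPKM in the control, 13.6 after low fluence and 16.5 after high fluence. Low fluence and control lay within 1.04-fold, and high fluence was 1.15-fold above control. It has 1 annotated transcript.

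**Figure D2:**
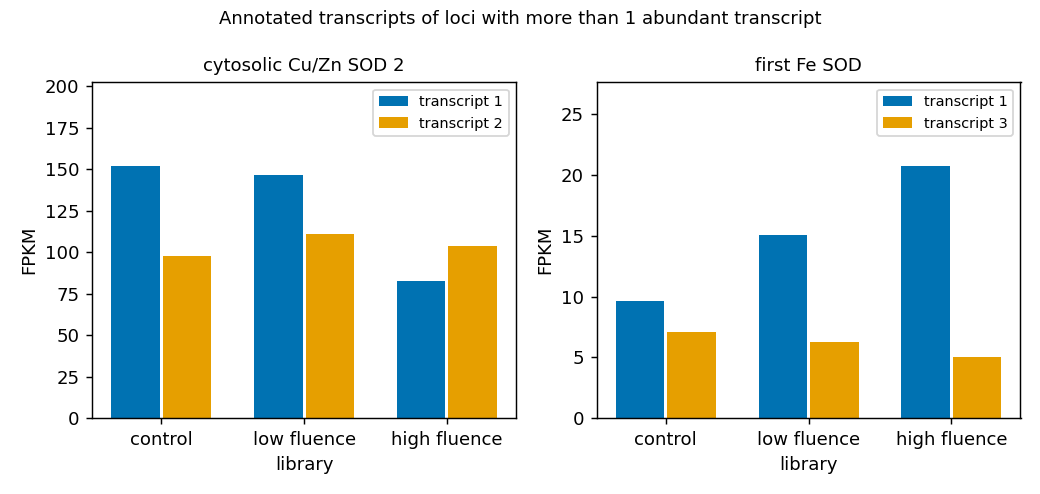
FPKM (vertical axis, from 0) of the annotated transcripts of cytosolic Cu/Zn SOD 2 (left) and the first Fe SOD (right) in the 3 libraries, 1 library each. After high fluence transcript 1 of cytosolic Cu/Zn SOD 2 is 82.5 FPKM, below transcript 2 at 104, whereas transcript 1 of the first Fe SOD is 20.7 FPKM against 5.03 for transcript 3.

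Ratios within a library do not depend on how libraries are scaled to one another. The Mn SOD made up 48.9% of the summed SOD FPKM in the control, 41.1% after low fluence and 35.1% after high fluence. The 3 plastid SODs together made up 15.7%, 20.6% and 30.7%, and both cytosolic SODs 35.4%, 38.2% and 34.3%. The ratio of plastid to other SOD transcripts was 0.186 in the control, 0.260 after low fluence and 0.442 after high fluence, 2.37 times the control. Grouping by compartment and this ratio were chosen after the values were seen. With each SOD left out in turn, the ratio after high fluence was 2.02 to 2.71 times the control, lowest without Mn SOD and highest without cytosolic Cu/Zn SOD 2. On the deposited scale every plastid SOD stood above control after high fluence and every other SOD below it. The ratio therefore had to stay above control whichever SOD was left out, and this range is no test of the grouping. By metal, the Cu/Zn forms made up 47.2% of SOD transcripts in the control, 54.0% after low fluence and 57.8% after high fluence, and the Fe forms 3.92%, 4.84% and 7.10%.

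**Figure D3:**
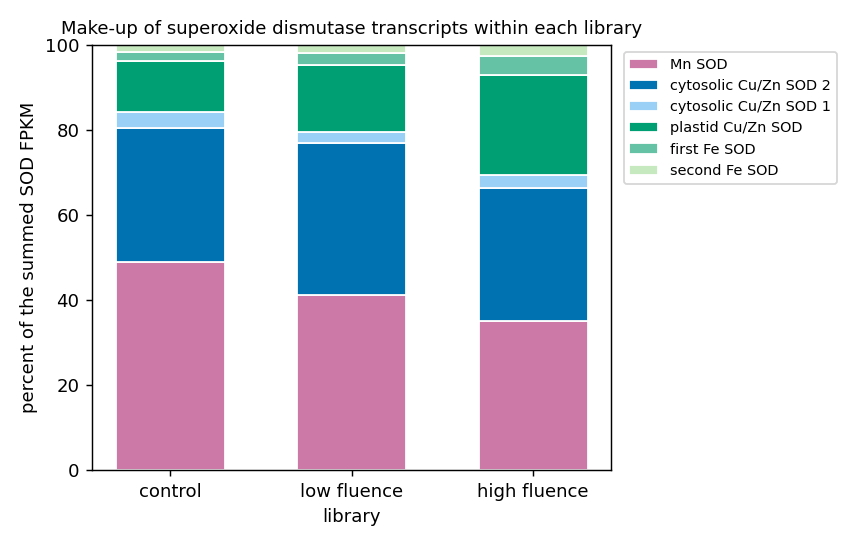
Percent of the summed SOD FPKM (vertical axis) taken by each SOD locus within the control, low fluence and high fluence library, 1 library each. The Mn SOD band narrows from 48.9% in the control to 35.1% after high fluence, and the plastid Cu/Zn SOD band widens from 11.8% to 23.6%.

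CatA (LOC_Os02g02400, chromosome 2) had the highest level of the 9 loci, at 469 FPKM in the control, 457 after low fluence and 388 after high fluence. Low fluence and control lay within 1.03-fold, and high fluence was 1.21-fold below control. Over 96% of its level was transcript 1 in each library. Its minor transcript 3 stood at 4.42 FPKM in the control, 15.9 after low fluence and 12.4 after high fluence. This was above control in both irradiated libraries, 3.12-fold and 2.48-fold. The share of transcript 1 was 99.0% in the control, 96.3% after low fluence and 96.5% after high fluence. Of the 3364 loci with several transcripts, 49.9% shifted at least as much after low fluence and 51.5% after high fluence, so such a shift was common.

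CatB (LOC_Os06g51150, chromosome 6) stood at 263 FPKM in the control, 207 after low fluence and 248 after high fluence. The low fluence library was the lowest, 1.27-fold below control, and high fluence lay within 1.06-fold of control. Its minor transcript 2 was also above control in both irradiated libraries, at 1.93 FPKM in the control, 4.53 after low fluence and 3.87 after high fluence. The ratio of CatA to CatB within a library was 1.79 in the control, 2.21 after low fluence and 1.56 after high fluence.

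CatC (LOC_Os03g03910, chromosome 3), known as a catalase of the photosynthetic leaf, stood at 1.32 FPKM in the control, 5.94 after low fluence and 1.11 after high fluence. It made up 0.180% of catalase transcripts in the control, 0.887% after low fluence and 0.174% after high fluence. The low fluence value stood apart, 2.99-fold above control on the scale of FPKM + 1, and 3.29-fold above high fluence. This is the library with the lowest estimated depth, and the counting error at this level is unknown. The difference after low fluence was under 2-fold with a pseudocount of 5, and also when the assembled unit in the row before it, CUFF.7176, was added. CUFF.7176 stood at 4.07 FPKM in the control, 4.29 after low fluence and 1.22 after high fluence. With it added, the log2 ratio of high fluence to control was -0.94 in place of -0.14. The rows around CatC interleave different stretches of chromosome 3, so CUFF.7176 need not lie near it.

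The catalases together summed to 733 FPKM in the control, 670 after low fluence and 637 after high fluence, and the SODs to 789, 722 and 595. The ratio of catalase to SOD transcripts within a library was 0.929 in the control, 0.929 after low fluence and 1.07 after high fluence. The value after high fluence was 1.15 times the control with all loci and 0.907 times without Mn SOD, so its direction rested on Mn SOD.

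The members were read against all 18934 annotated loci whose mean reached 1 FPKM, and all 9 members did. After low fluence 3.06% of these loci were higher than the control by 2-fold or more, with CatC as the 1 member, and 3.52% were lower, with no member. After high fluence the shares were 4.23% higher and 6.33% lower, with no member in either direction. From low to high fluence 3.61% were higher, with no member, and 4.56% lower, with CatC as the 1 member. At 1.5-fold, 10.9% of loci were higher and 17.7% lower after high fluence than in the control. The members past 1.5-fold were plastid Cu/Zn SOD and the first Fe SOD, higher, and Mn SOD and cytosolic Cu/Zn SOD 1, lower. Both higher loci lay just at this threshold, and 2 of 9 members in each direction are too few to set apart from these shares. After low fluence 8.49% of loci were 1.5-fold higher, CatC among them, and 9.07% were 1.5-fold lower, cytosolic Cu/Zn SOD 1 among them. Both irradiated libraries are set against the same control library.

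**Figure D4:**
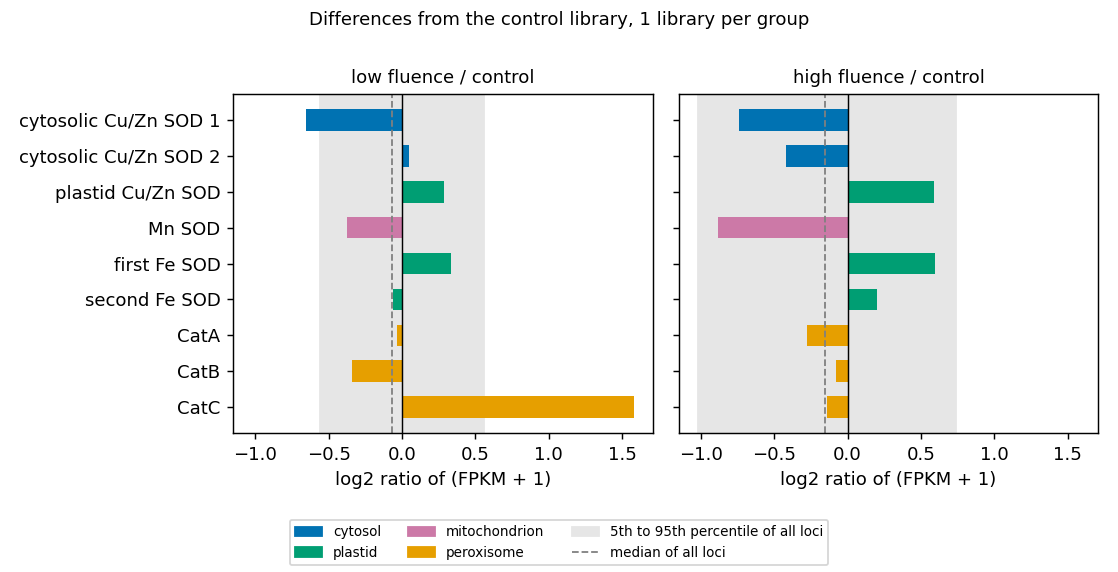
Log2 ratio of (FPKM + 1) of low fluence to control (left) and high fluence to control (right) for each locus, coloured by compartment, with the 5th to 95th percentile of all 9265 annotated loci averaging 10 FPKM or more in grey and their median as a dashed line. After high fluence the 9 loci lie within the grey band from -1.02 to 0.74, with the plastid SODs to the right of 0 and all others to the left. Of those to the left, Mn SOD alone stayed there when libraries were rescaled to the FPKM total of all rows. After low fluence cytosolic Cu/Zn SOD 1 at -0.65 and CatC at 1.58 lie outside the band from -0.56 to 0.56. CatC averages 2.79 FPKM and is not among the loci of the band.

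The median log2 ratio of the 9 members was -0.04 after low fluence and -0.14 after high fluence, beside -0.05 and -0.10 over all loci averaging at least 1 FPKM. The members as a set thus lay close to the median of all loci, with the plastid SODs on one side and Mn SOD and cytosolic Cu/Zn SOD 1 on the other. Relative to the median of loci averaging at least 10 FPKM, which was -0.15 after high fluence, the log2 ratio after high fluence was 0.74 for plastid Cu/Zn SOD, 0.74 for the first Fe SOD and 0.35 for the second. On the same centred scale it was -0.73 for Mn SOD, -0.59 and -0.27 for cytosolic Cu/Zn SOD 1 and 2, -0.12 for CatA, 0.07 for CatB and 0.01 for CatC. Rescaling to the FPKM total of all rows, which assembled transcripts dominate, moved the median after high fluence from -0.15 to 0.64. Both values are for loci averaging at least 10 FPKM. Under it the plastid SODs remained above control, Mn SOD came to a log2 ratio of -0.025, and cytosolic Cu/Zn SOD 1 and 2, CatA, CatB and CatC stood above control.

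Mn SOD differed most from control after high fluence on the deposited scale, with the exceptions given above. The 2 loci whose pair of ratios to control lay nearest to it, by distance on the log2 scale over the 2 comparisons, were LOC_Os04g46960 on chromosome 4 and LOC_Os11g40500 on chromosome 11. LOC_Os04g46960 stood at 398 FPKM in the control, 306 after low fluence and 214 after high fluence, and LOC_Os11g40500 at 26.9, 20.3 and 14.1. A total of 100 of 9257 loci lay within 0.1 of Mn SOD, so the likeness, which rests on 3 libraries, does not single them out.

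Enzymes that remove hydrogen peroxide by other routes, or make it, were counted from lists of locus identifiers. Their assignment rests on general knowledge of rice locus names and is not given in the files. The ascorbate-glutathione cycle passes electrons from glutathione through ascorbate to peroxide. Of its 18 listed loci 17 had a mean of at least 1 FPKM, and after high fluence 14 of these stood below control, 1 of them at least 2-fold, and none was 2-fold higher, beside 6.33% of all measured loci 2-fold lower and 4.23% higher. Their median log2 ratio was -0.42 after high fluence and -0.14 after low fluence, beside -0.10 and -0.05 over all measured loci. Those medians are below 0, so most measured loci stood below control as well, and their share was not counted. Values of this list are given on the deposited scale only. Rescaling to the FPKM total of all rows moved the median of loci averaging 10 FPKM or more to 0.64 after high fluence. The 2 with the highest level were LOC_Os05g02530, at 375 FPKM in the control, 319 after low fluence and 198 after high fluence, and LOC_Os03g17690, at 212, 151 and 159. Both were below control in both irradiated libraries. The 1 locus past 2-fold, named after its values were seen, was LOC_Os09g39380, at 160 FPKM in the control, 159 after low fluence and 77.5 after high fluence.

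Of 14 thiol peroxidases, which reduce peroxides with thioredoxin or glutathione, 13 had a mean of at least 1 FPKM and none differed 2-fold from control in either irradiated library. Of all measured loci, 3.06% were 2-fold higher and 3.52% lower after low fluence, and 4.23% and 6.33% after high fluence. A list of 13 loci is too short to set apart from these shares. LOC_Os04g46960, the list member of highest level, had the values given above, and the next, LOC_Os01g48420, stood at 255 FPKM in the control, 258 after low fluence and 207 after high fluence. The glutathione peroxidase-like loci summed to 570 FPKM in the control and 346 after high fluence, 1.65-fold lower, and the peroxiredoxins to 588 and 559. Among 4 glycolate oxidases, the peroxisomal source of hydrogen peroxide in photorespiration, 1 locus stood just past 2-fold higher after low fluence, at a log2 ratio of 1.00, and 2.14-fold higher after high fluence, and none was 2-fold lower, beside the shares of all measured loci given above. Their sum was 132 FPKM in the control, 137 after low fluence and 136 after high fluence. That locus, LOC_Os03g57220, also named after its values were seen, stood at 11.6, 24.3 and 26.1 FPKM. LOC_Os07g42440 went the other way, at 27.9, 15.6 and 13.5 FPKM, 1.74-fold and 1.99-fold below control. The leading loci of the list were LOC_Os04g53210, at 74.6, 69.7 and 67.2 FPKM, and LOC_Os07g05820, at 17.9, 27.3 and 29.0. A list of 2 further loci of the Cu/Zn SOD system, a copper chaperone and an SOD-like protein, held LOC_Os04g48410 and LOC_Os03g11960. Neither differed 2-fold from control, and 2 loci are too few to set apart from the shares of all measured loci. LOC_Os04g48410 stood at 29.9, 27.3 and 29.8 FPKM, within 1.09-fold of control. LOC_Os03g11960 stood at 25.2 FPKM in the control, 43.9 after low fluence and 37.2 after high fluence, above control in both irradiated libraries.

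**Figure D5:**
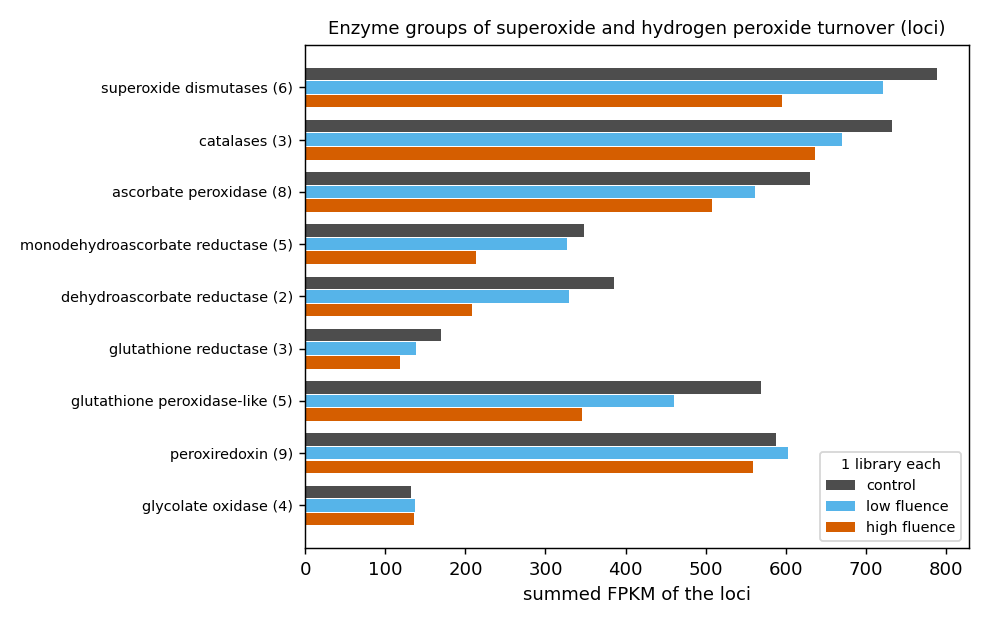
Summed FPKM (horizontal axis, from 0) of the loci of each enzyme group, with the number of loci in brackets, in the 3 libraries, 1 library each. The SOD sum is 789 in the control and 595 after high fluence, the dehydroascorbate reductase sum 385 and 208, and the glycolate oxidase sum 132 and 136.

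Markers of seedling parts also differed between the libraries. Of 7 loci taken as markers of green leaf 1 was listed at 0 in every library, and the sum of the list was 885 FPKM in the control, 1242 after low fluence and 405 after high fluence. Of the 6 measured, 3 were at least 2-fold lower after high fluence than in the control, beside 6.33% of all measured loci. These were LOC_Os01g41710, LOC_Os09g17740 and LOC_Os03g39610, 29.1-fold, 47.0-fold and 58.0-fold lower. LOC_Os03g39610 stood at 242 FPKM in the control, 309 after low fluence and 3.18 after high fluence. The other 3 did not share this drop. LOC_Os12g17600 stood at 164, 348 and 306 FPKM. LOC_Os12g19470 and LOC_Os12g19381 were 1.10-fold and 1.42-fold below control after high fluence. Of 4 root markers 3 were at least 2-fold lower after high fluence, beside the same 6.33% of all measured loci. The sum of the 4 was 1515 FPKM in the control, 1429 after low fluence and 1102 after high fluence. The fourth, LOC_Os02g44320, stood at 554, 867 and 865 FPKM, above control in both irradiated libraries, and carried most of the sum after high fluence. The sum of 4 markers of seed reserves and starch breakdown was 33.0, 0.904 and 4.26 FPKM. LOC_Os02g52710 carried this difference, at 31.4 FPKM in the control, listed at 0 after low fluence and at 0.365 after high fluence, while the other loci of the list, all under 3 FPKM, were higher after high fluence than in the control. All 4 were above 0 in the control and after high fluence, and 1 was listed at 0 after low fluence. The part of these marker differences in the SOD and catalase values was not tested.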

How the data were processed

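Messenger RNA was sequenced from 1 library per group. The authors deposited FPKM values for each transcript, which the file headers name as such. The submitters' processing notes list TopHat2 2.0.5. Not given in the sources used here are the genome build, annotation, strand setting and the program behind the FPKM. FPKM were summed over transcripts sharing an identifier up to the transcript number, with pandas 2.3.3 and numpy 2.4.6 under Python 3.11.15, and figures were drawn with matplotlib 3.10.9. Chromosome numbers are read from the identifiers.

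The members and lists were chosen with earlier results of these data known. All 9 members were named, with the 2 loci of highest mean in each pathway list and the 2 loci nearest in pattern to Mn SOD, the member with the largest ratio at high fluence on the deposited scale. Loci averaging 1 FPKM or more were compared as the log2 ratio of (FPKM + 1). Of the 9 names, 6 matched a RefSeq synonym (assembly ASM3414082v1), each on the chromosome of its locus identifier, and no locus identifier matched. Coordinates of that assembly are not used. The planned search of promoters for motifs was not run, since no sequence was used here. Total counts are not given, so depth is known only as a ratio: of 559, 983 and 633 single-transcript loci under 0.2 FPKM, 83.0%, 77.8% and 78.5% lay within 1% of a ratio of whole numbers up to 6 times the common step, for low fluence to control, high fluence to control and high to low fluence. Arithmetic on FPKM gives no counting interval.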

Additional observations from a re-analysis of the deposited data

How the results depend on the processing

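No paired analysis was possible because each group has 1 library, and for the same reason none could be left out. Values kept their direction after high fluence for the 3 plastid SODs (above control) and Mn SOD (below) under all 9 alternatives run on single loci. Among them, centring on the median of loci, was chosen after the data were seen. Of all ratios of single loci under these alternatives, 220 moved by less than 1.5-fold and 23 by more. Members at least 2-fold from control, 1 higher (CatC) after low fluence and 0 otherwise, became 0 higher after low fluence with a pseudocount of 5, with assembled neighbours added, with a minimum mean of 10 FPKM and with rescaling to 1000000 over all rows. After high fluence, 1 was higher by the highest transcript (the first Fe SOD), beside 811 of all loci. Rescaling over all rows gave 2 higher, beside 3189 of all loci higher and 229 lower. At 1.5-fold there were 1 lower after low fluence, and 2 higher and 2 lower after high fluence. CatC was the 1 member at least 2-fold lower after high than after low fluence. It was not called (0) with a pseudocount of 5, a minimum mean of 10 FPKM or rescaling over all rows. That rescaling called 4 members at least 2-fold higher after high than after low fluence, beside 4408 of all loci higher and 142 lower. It moved the median log2 ratio of loci averaging 10 FPKM or more to 0.83 in this comparison, so these calls do not single out the members. Annotated loci held 20.2% of the FPKM total of all rows in the control, 17.7% after low fluence and 32.0% after high fluence. Why these shares differ was not tested.

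Counts of all loci at 2-fold (579 higher and 666 lower after low fluence, 800 and 1198 after high fluence, 684 and 864 for high against low) depended on the settings as follows, in the same order. A pseudocount of 5 gave 121 and 157, 228 and 425, 172 and 243. A minimum mean of 10 FPKM gave 86 and 100, 220 and 482, 109 and 275. A 1.5-fold threshold gave 1607 and 1717, 2070 and 3356, 1673 and 2501. Rescaling over all rows gave 189 and 346, 3189 and 229, 4408 and 142. A pseudocount of 0.1 gave 943 and 1026 after low fluence, 1230 higher after high fluence and 1334 lower for high against low. Rescaling over annotated loci gave 1396 higher after high fluence and 1037 higher for high against low.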
